A study of Mus musculus with 2 samples.

Results

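The 10 genes followed here across the cells of the mouse optic glioma are known as marks of disease-associated microglia: Trem2, Tyrobp, Apoe, Lpl, Cst7, Spp1, Gpnmb, Cd9, Itgax and Lgals3. These 10 genes were taken by symbol from the 32285 genes of the count matrices, and all 10 were present. No cutoff on their values was used, but they were chosen with earlier results of these data known. The data were 2 single-cell RNA libraries of optic nerve, C-ON and FMC_new, each made from 10 pooled mice of 12 weeks that the labels give the genotype NF1-OPG. In this model, called Nf1OPG, every cell carries 1 mutant Nf1 allele and the other, floxed allele is removed by Cre under the GFAP promoter, so both libraries share this genotype and neither is a wild-type control. The title of C-ON calls it a control without saying of what, and the meaning of FMC is not given. Because mice were pooled, no value could be tied to an animal, and because both libraries hold the same condition, no test between conditions was possible. All levels are therefore given once per library, with intervals that cover counting error only.

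TREM2 is a lipid-binding receptor of microglia and some macrophages, and it signals through the adaptor TYROBP (also called DAP12) to the kinase SYK. In the brain, loss of TREM2 is known to hold microglia short of the disease-associated state, in which APOE, lipoprotein lipase and lysosomal genes go up while homeostatic genes such as P2ry12 and Tmem119 go down. Several genes of that state are not restricted to microglia: Itgax is the classical dendritic cell integrin CD11c, Cst7 is also a lymphocyte gene, and Spp1 and Gpnmb are made by tumor cells of several kinds.

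The windows before 2 of the genes are shown because these genes had opposite distributions, Trem2 in myeloid cells and Gpnmb in the cells called tumor-like below. Each is the 250 bases ahead of the RefSeq gene start in the table's build GRCm38.p6, plus strand, chr17:48346151-48346400 for Trem2 and chr6:49036268-49036517 for Gpnmb. Capitals mark the reverse complement of the PU.1 box GAGGAA, the core site of the myeloid factor PU.1, searched on both strands.
Trem2: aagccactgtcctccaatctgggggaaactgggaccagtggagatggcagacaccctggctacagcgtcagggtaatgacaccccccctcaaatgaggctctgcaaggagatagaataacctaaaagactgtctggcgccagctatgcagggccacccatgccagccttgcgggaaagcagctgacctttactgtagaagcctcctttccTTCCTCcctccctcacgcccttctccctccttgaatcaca
Gpnmb: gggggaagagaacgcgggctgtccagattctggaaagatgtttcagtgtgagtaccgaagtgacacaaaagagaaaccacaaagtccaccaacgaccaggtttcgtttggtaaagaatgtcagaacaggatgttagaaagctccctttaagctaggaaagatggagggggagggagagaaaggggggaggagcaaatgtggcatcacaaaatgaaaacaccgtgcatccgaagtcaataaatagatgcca
The box lay 40 bases ahead of the start in Trem2 and was not found in the Gpnmb window. RefSeq windows were at hand for 8 of the 10 genes, in 11 windows, and the box was in 4 of them (Apoe, Spp1 and Trem2), against 23.3% of all 32851 windows. The AP-1 site TGACTCA was in the Itgax window and in 4.46% of all windows, and the E-box CATGTG, which overlaps neither, was in the Cd9 window and in 12.3% of all windows. The E-box CACGTG, a site of the MITF and TFEB family of lysosomal regulators, was in none of the 11 windows and in 6.02% of all windows. These are matches of letters, not evidence of binding.

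After filtering, 8834 cells of C-ON (81.5% of its barcodes) and 16818 of FMC_new (78.8%) remained, with medians of 6810.5 and 4676 unique molecular identifiers (UMIs) a cell. The libraries differed in make-up: oligodendrocyte-like cells were 60.2% of C-ON and 12.2% of FMC_new, and FMC_new held 1061 pituitary endocrine-like cells against 19 in C-ON. Among the 25652 kept cells, 188 barcodes were present in both libraries. Cells fell into 36 clusters, 28 of which could be named by markers that include none of the 10 genes. The classes read here were microglia-like (218 and 1726 cells, clusters 6 and 14), macrophage-like (357 and 960), dendritic-like (336 and 1463), astrocyte-like (19 and 213) and tumor-like (214 and 1413, clusters 9 and 18, with markers shared by oligodendrocyte precursors). The 19 astrocyte-like cells of C-ON were too few to use. Nf1 itself was read at 60.4 and 54.7 CPM over the kept cells of C-ON and FMC_new. CPM is the usual scaling of a gene's UMIs to the UMI total of its class or library. This Nf1 level does not show whether the floxed exons were removed, since only the 5′ ends of transcripts were read.

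Among classes of at least 20 cells in a library, Trem2 and Lpl alone had their highest level in the microglia-like class in both libraries. Tyrobp was highest there in C-ON and level with neutrophil-like cells in FMC_new (2871 and 2879 CPM, with overlapping intervals). Spp1 was highest in microglia-like cells in FMC_new but not in C-ON. Its lead in FMC_new rested on a single cell, without which fibroblast-like cells were higher. The other 6 genes were highest in another class in each library. Trem2, Tyrobp and Apoe were shared by microglia-like and macrophage-like cells. In both libraries Cst7, Itgax and Lgals3 were higher in lymphoid or dendritic-like cells than in microglia-like cells. With all cells counted, Spp1 was higher in fibroblast-like and NK-like cells than in microglia-like cells in C-ON alone. Gpnmb and Cd9 were highest in tumor-like cells.

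**Figure D1:**
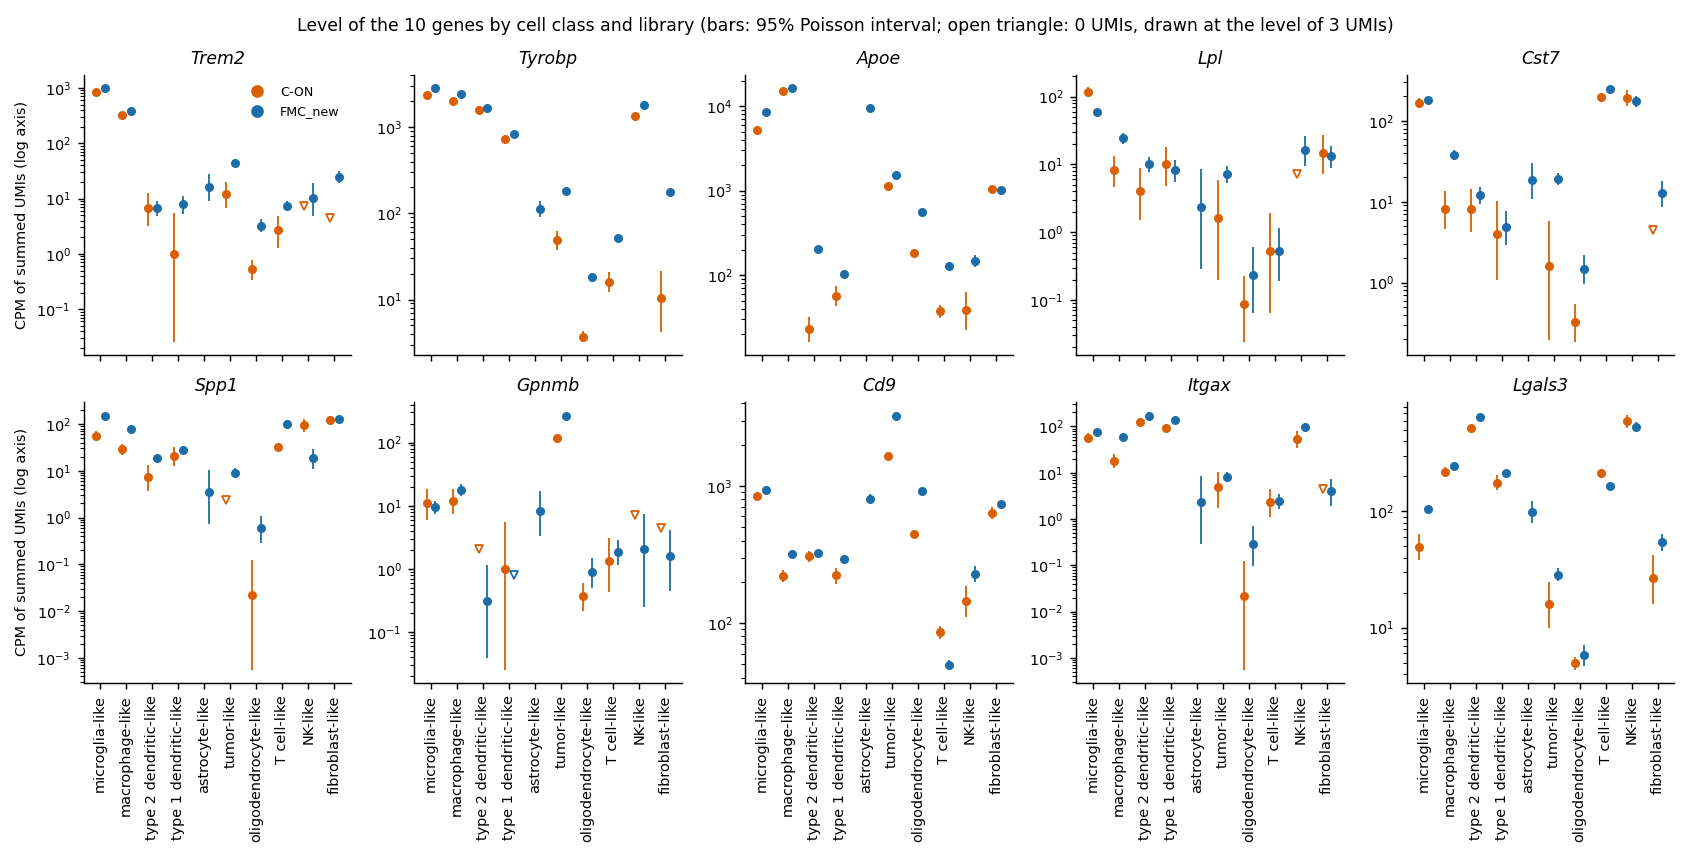
Level of each of the 10 genes (CPM of summed UMIs, log axis) in 10 cell classes, with C-ON in orange and FMC_new in blue; bars are 95% Poisson intervals and open triangles mark classes with 0 UMIs, drawn at the level of 3 UMIs. Trem2 stands highest in microglia-like cells in both libraries, at 833 and 1003 CPM, and Gpnmb in tumor-like cells, at 118 and 263 CPM.

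Trem2 (chr17:48346401-48354147, plus strand, GRCm38) encodes the receptor itself. In microglia-like cells it was at 833 CPM (95% Poisson interval 784 to 885) in C-ON and 1003 CPM (982 to 1025) in FMC_new, with at least 1 UMI in 187 of 218 and 1383 of 1726 cells. Macrophage-like cells held 326 CPM (300.3 to 353) and 379.8 CPM (362 to 398). Microglia-like cells were thus 2.56-fold and 2.64-fold above macrophage-like cells, a ratio that differed little between the libraries. Every other class lay far lower: 4.48 and 7.01 CPM in dendritic-like cells, 16.4 CPM in the astrocyte-like cells of FMC_new and 0.523 and 3.25 CPM in oligodendrocyte-like cells. Classes that should lack the gene set the background in this assay. Oligodendrocyte-like cells had the lowest level, with a Trem2 UMI in 0.376% and 2.14% of cells at medians of 8079 and 7843.5 UMIs a cell. T cell-like cells were higher, at 2.65 and 7.38 CPM, and so were plasma cell-like cells, at 2.74 and 7.35 CPM and with a UMI in 2.65% and 4.15% of cells at medians of 10716 and 11726 UMIs. The shares were 85.8% and 80.1% in microglia-like cells at medians of 4646 and 3678.5. Of all 13178 Trem2 UMIs in the kept cells, 72.0% lay in microglia-like and 18.1% in macrophage-like cells, which were 7.58% and 5.13% of the cells.

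Tyrobp (chr7:30413760-30417585, plus strand) encodes the adaptor, which also serves receptors of NK cells, neutrophils and dendritic cells. Its level was 2367 CPM (2283 to 2453) and 2871 CPM (2835 to 2908) in microglia-like cells and 1994 CPM (1930 to 2060) and 2423 CPM (2378 to 2468) in macrophage-like cells. The adaptor therefore lacked the step that its receptor had: the ratio of microglia-like over macrophage-like cells was 1.19 in each library. Type 2 dendritic-like cells followed at 1606 and 1672 CPM, NK-like cells at 1335 and 1803 CPM, and neutrophil-like cells, present in number in FMC_new alone, were at 2879 CPM (2742 to 3020). Oligodendrocyte-like cells, which should lack it, were at 3.72 and 18.05 CPM, with a UMI in 2.69% and 9.72% of cells.

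Apoe (chr7:19696109-19699188, minus strand) encodes the lipoprotein that TREM2 binds and that astrocytes and microglia secrete to carry lipid. It was highest in macrophage-like cells, at 15233 CPM (15055 to 15413) and 16659 CPM (16543 to 16776). Microglia-like cells held 5282 CPM (5156 to 5409) and 8507 CPM (8445 to 8569), so macrophage-like cells were 2.88-fold above them in C-ON and 1.96-fold in FMC_new. Astrocyte-like cells of FMC_new, at 9463 CPM (9258 to 9672), stood between the myeloid classes. Tumor-like cells held 1127 and 1545 CPM and did not overlap microglia-like cells in either library. Within the microglia-like class, the shallow cluster 14 was at 12709 and 12979 CPM and the main cluster 6 at 4769 and 7712 CPM. Cluster 14 also held more of the macrophage markers, whose summed level was 2228 and 664 CPM against 159.8 and 240.4 CPM in cluster 6, with all 12 markers found in each library of cluster 14. The part of these in the Apoe level of cluster 14 was not tested. Macrophage-like and microglia-like cells held 43.0% and 31.7% of the Apoe UMIs, and oligodendrocyte-like cells 7.25%.

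Lpl (chr8:68880491-68907448, plus strand) encodes lipoprotein lipase, which frees fatty acids from lipoproteins. It was found in few cells. In microglia-like cells 18 of 218 and 172 of 1726 cells held a UMI, for a level of 116 CPM (98.4 to 137) in C-ON and 59.8 CPM (54.6 to 65.2) in FMC_new. A single cell of C-ON held 75 of the 148 UMIs, and without it the C-ON level was 58.1 CPM, close to that of FMC_new. Macrophage-like cells held 8.17 and 24.3 CPM and T cell-like cells 0.531 and 0.527 CPM. The 10 neutrophil-like cells of C-ON, too few to use, were at 952 CPM (721 to 1233), with 57 UMIs in 3 cells. Pituitary endocrine-like cells, counted in FMC_new, were next to microglia-like cells at 33.2 CPM. A UMI was found in 13.9% of them against 9.97% of microglia-like cells. These shares were not taken at equal depth and do not rank the classes. Pituitary endocrine-like cluster 24 had a share of 25.9% at a median of 11892 UMIs a cell. Cluster 20 of the same class had 1.89% at a median of 1913, and microglia-like cells of FMC_new had a median of 3678.5. Below pituitary endocrine-like cells the order of the classes differed between the libraries.

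Cst7 (chr2:150570415-150578944, plus strand) encodes cystatin F, an inhibitor of lysosomal cathepsins in immune cells. In microglia-like cells it was at 166 CPM (144 to 189.9) and 180.1 CPM (171 to 189), found in 66 of 218 and 528 of 1726 cells. This was well above the 8.17 and 37.7 CPM of macrophage-like cells and the 6.71 and 9.94 CPM of dendritic-like cells. T cell-like cells, at 196 and 250.2 CPM, were higher than microglia-like cells in both libraries. NK-like cells, at 194 and 174 CPM, were above microglia-like cells in C-ON and slightly below them in FMC_new. The ranges of NK-like and microglia-like cells over the libraries overlapped. T cell-like and NK-like cells held 51.7% and 3.61% of all Cst7 UMIs and microglia-like cells 24.9%. In oligodendrocyte-like cells 0.244% and 1.17% of cells had a Cst7 UMI.

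Spp1 (chr5:104435118-104441050, plus strand, with the gene model Gm42793 overlapping it) encodes osteopontin, a secreted ligand of integrins and CD44. Its level in microglia-like cells was 56.6 CPM (44.3 to 71.3) in C-ON and 148 CPM (140.2 to 157) in FMC_new, from 10 of 218 and 128 of 1726 cells. Both values leaned on single cells, which held 31 of 72 UMIs in C-ON and 423 of 1246 in FMC_new; without them the levels were 32.6 and 98.1 CPM. Fibroblast-like cells held 120.1 and 131 CPM, T cell-like cells 31.6 and 100.05 CPM and macrophage-like cells 28.9 and 79.9 CPM. In the order of levels, fibroblast-like, microglia-like, T cell-like, NK-like and macrophage-like cells overlapped each with the next over the 2 libraries. Tumor-like cells had 0 UMIs in C-ON, where 3 UMIs would have been 2.41 CPM, and 9.11 CPM in FMC_new.

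Gpnmb (chr6:49036546-49070929, plus strand) encodes a transmembrane glycoprotein of melanosomes and lysosomes that foamy macrophages and several gliomas make. Here it was a gene of the tumor-like class, at 118 CPM (99.9 to 139) in C-ON and 263 CPM (251.5 to 275) in FMC_new, in 26 of 214 and 375 of 1413 cells. Microglia-like cells were at 11.0 CPM (6.02 to 18.5) and 9.40 CPM (7.44 to 11.7), in 4 and 25 cells, and macrophage-like cells at 12.0 and 17.7 CPM. Most of the macrophage-like reads of FMC_new, 45 of 83 UMIs, came from 1 cell. Tumor-like cells held 80.9% of all 2678 Gpnmb UMIs and microglia-like cells 3.47%. In dendritic-like cells the level was 0.746 and 1.42 CPM.

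Cd9 (chr6:125460266-125494791, minus strand, overlapping the gene models Gm26728 and Gm28809) encodes a tetraspanin that myelinating and precursor cells also carry. Tumor-like cells led with 1651 CPM (1580 to 1724) and 3258 CPM (3217 to 3298). Microglia-like cells followed at 841 CPM (791 to 893) and 938 CPM (918 to 959), above macrophage-like cells at 222 and 318 CPM by 3.78-fold and 2.95-fold. Oligodendrocyte-like cells held 39.8% of the Cd9 UMIs, at 445 and 918 CPM, and among them cluster 1 was at 1041 and 1397 CPM while cluster 0 was at 145 and 295 CPM.

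Itgax (chr7:128129547-128150657, plus strand) encodes the integrin alpha X chain CD11c, and Lgals3 (chr14:47367751-47386160, plus strand) the galactoside-binding lectin galectin 3. Type 2 dendritic-like cells held 128 and 167 CPM of Itgax, type 1 dendritic-like cells 93.4 and 139 CPM, and microglia-like cells 57.4 CPM (45.01 to 72.2) and 76.1 CPM (70.3 to 82.2). The first 5 classes in the order of Itgax, down to macrophage-like cells at 17.98 and 58.4 CPM, overlapped each with the next. In microglia-like cells Lgals3 was at 49.6 CPM (38.1 to 63.4) and 105 CPM (98.2 to 112), below macrophage-like cells at 219 and 248 CPM. Neutrophil-like cells of FMC_new were at 1111 CPM, type 2 dendritic-like cells at 518 and 645 CPM and NK-like cells at 598 and 538 CPM. Microglia-like cells held 21.3% of the Itgax UMIs and 6.13% of the Lgals3 UMIs.

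**Figure D2:**
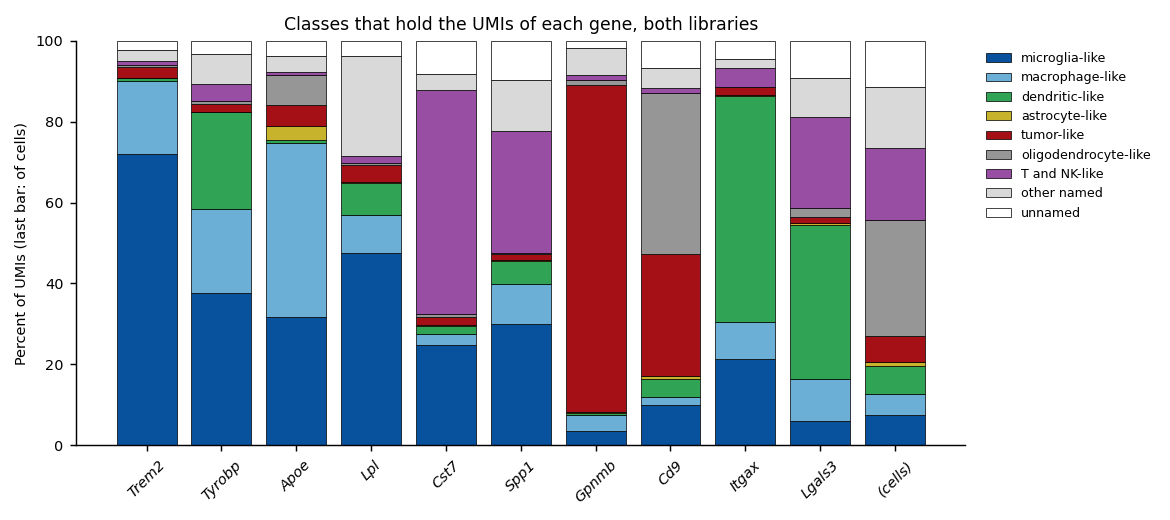
Share of the UMIs of each gene (percent, stacked to 100) that each cell class held over both libraries, with the share of cells in the last bar. Microglia-like cells, 7.58% of the cells, hold 72.0% of the Trem2 UMIs and 3.47% of the Gpnmb UMIs.

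The microglia-like class was set against 4 other classes within each library, and a gene was called where its CPM differed at least 2-fold the same way in each library used. Since clusters were made from the same cells, the calls describe the libraries and carry no test. Against macrophage-like cells, 4 of the 10 genes were called higher in microglia-like cells (Trem2, Lpl, Cst7 and Cd9), where 3.39% of 9787 genes were called, and 1 was called lower (Lgals3), where 3.73% were. Cst7 stood out by 20.3-fold and 4.78-fold, and Lpl by 14.2-fold and 2.46-fold, the former with the cell of 75 UMIs included. Spp1 was 1.96 and 1.86 times as high, and Gpnmb 0.918 and 0.532 times, both short of a call. The Spp1 ratios include, in each library, the single microglia-like cell that held a large part of its UMIs. The Gpnmb ratio of FMC_new includes the macrophage-like cell that held most of its UMIs there.

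Against dendritic-like cells, 9 genes had enough UMIs and 6 were called higher (Trem2, Apoe, Lpl, Cst7, Spp1 and Cd9) beside 10.2% of all genes, and Lgals3 was called lower beside 6.98%. Trem2 was 186-fold and 143-fold and Apoe 148-fold and 51.7-fold above dendritic-like cells, while Tyrobp was near the limit at 1.98-fold and 2.16-fold. For Itgax dendritic-like cells were above microglia-like cells by 1.88-fold and 1.98-fold. Against the astrocyte-like cells of FMC_new, 6 genes were called higher beside 15.0% of all genes, among them Trem2 at 61.1-fold, and none was called lower beside 37.5%. Apoe, Cd9, Gpnmb and Lgals3 differed less than 2-fold from the astrocyte-like cells, which also held microglia markers at a summed 1645 CPM.

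Against tumor-like cells 8 of the 10 genes were called higher beside 11.4% of all genes, and Gpnmb was called lower beside 29.4%. Tumor-like cells exceeded microglia-like cells by 10.7-fold and 27.96-fold for Gpnmb, and by 1.96-fold and 3.47-fold for Cd9, just short of a call in C-ON. Trem2 was 69.0-fold and 22.7-fold and Cst7 103-fold and 9.35-fold higher in microglia-like cells. Most of the Trem2 UMIs of the tumor-like class lay in cluster 18, 1 of its 2 clusters.

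**Figure D3:**
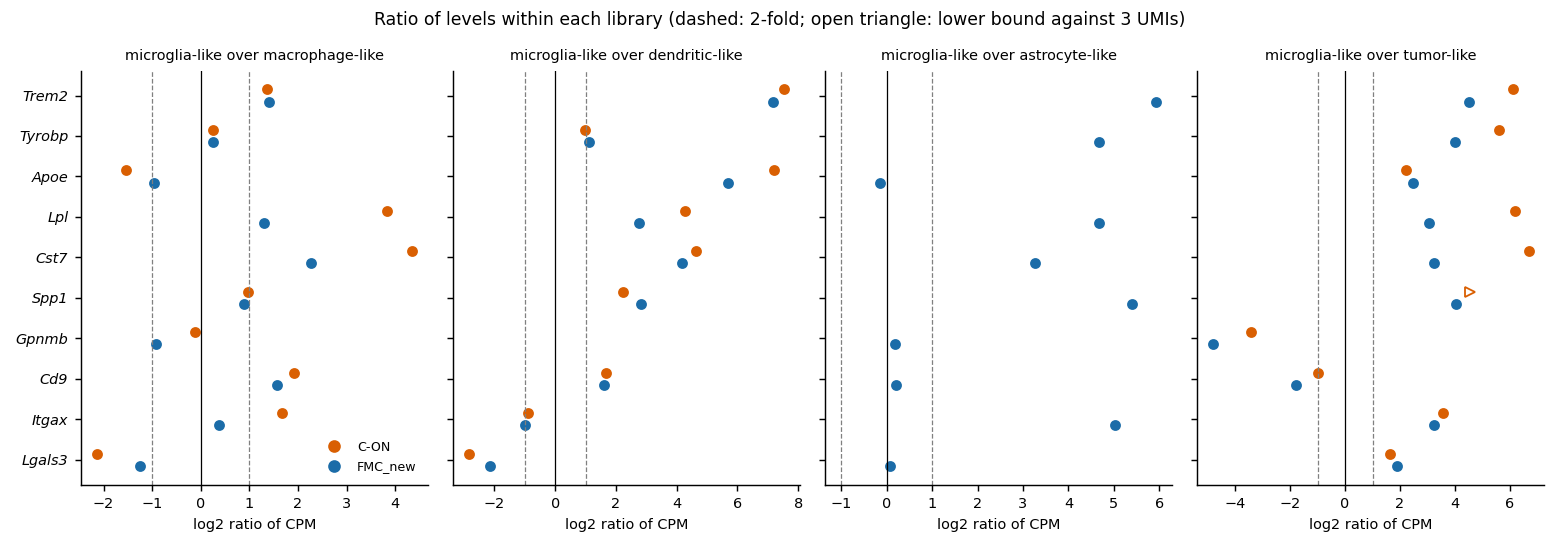
log2 ratio of CPM in microglia-like cells over 4 other classes for the 10 genes in C-ON (orange) and FMC_new (blue), with dashed lines at 2-fold and open triangles for lower bounds against 3 UMIs. Trem2 lies right of the dashed line in every panel, Lgals3 left of it against macrophage-like and dendritic-like cells, and Gpnmb left of it against tumor-like cells.

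Other genes of the pathway were counted from lists that exclude the 10 genes. The shares of all genes to read them against are 3.39% higher and 3.73% lower against macrophage-like cells, and 11.4% and 29.4% against tumor-like cells. Of 16 TREM2 signalling partners, none was called higher and 3 were called lower in microglia-like than in macrophage-like cells: Vav3, a guanine exchange factor (46.9-fold and 6.90-fold higher in macrophage-like cells), Ms4a4a (43.6-fold and 18.04-fold) and Ms4a6d (3.40-fold and 2.60-fold), both of the MS4A family linked to soluble TREM2. Syk, Plcg2, Inpp5d and the sheddases Adam10 and Adam17 were among the 13 without a call. Against tumor-like cells 13 of the 15 measured partners were called higher, among them Syk at 21.7-fold and 6.17-fold and Inpp5d, the phosphatase SHIP1, at 32.3-fold and 9.27-fold. The step in Trem2 between microglia-like and macrophage-like cells was therefore not accompanied by a call in Tyrobp or in the kinase genes.

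Of 27 other disease-associated microglia genes, 4 were called higher in microglia-like than in macrophage-like cells and 4 lower. Higher were the proteases Ctsd (5.15-fold and 5.69-fold) and Ctsl (3.32-fold and 3.06-fold), the microglial growth factor Csf1 (3.89-fold and 5.20-fold) and the protease inhibitor Serpine2 (41.7-fold and 16.4-fold). Lower were Igf1, Ch25h, Lilrb4a and Cybb, with Igf1 12.5-fold and 2.24-fold higher in macrophage-like cells. Of 26 measured lipid genes, 3 were called higher (Pld3, Apoc1 and Dgat2) and 5 lower (Msr1, Pparg, Apoc2, Apoc4 and Pltp). The scavenger receptor Msr1 was 27.4-fold and 17.2-fold and the phospholipid transfer protein Pltp 29.5-fold and 15.03-fold higher in macrophage-like cells, whereas the acyltransferase Dgat2 was 5.48-fold and 5.29-fold higher in microglia-like cells. Of 15 homeostatic microglia genes 11 were called higher, but most of these were also markers that named the class.

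Within the microglia-like class the less abundant genes were found in few cells. With each cell drawn down to 1000 UMIs, so that depth was equal, 81.7% of microglia-like cells in C-ON and 74.6% in FMC_new had no UMI of Lpl, Cst7, Spp1, Gpnmb, Itgax or Lgals3, as means of 20 draws. Another 15.1% and 20.5% had 1 of the 6, and 2.71% and 3.89% had 2 of them. A UMI of Cst7 or Lpl was found in 17 of 212 cells of C-ON (8.02%, exact binomial 95% interval 4.74 to 12.5) and in 263 of 1674 cells of FMC_new (15.7%, 13.999 to 17.5) in the first draw, with 6 and 52 shallower cells left out. Over the 20 draws the share ran from 8.02% to 15.1% in C-ON and from 13.4% to 16.1% in FMC_new. These ranges overlapped, but they cover only the thinning of the same cells and cannot say whether the libraries differ. Without thinning the share was 34.9% and 35.5%. At 1000 UMIs the share was 1.69% and 2.53% in macrophage-like, 1.49% and 1.54% in dendritic-like and 0% and 0.246% in oligodendrocyte-like cells. In tumor-like cells it was 0% and 2.62%, and in fibroblast-like cells 0% and 2.07%. T cell-like and NK-like cells, which also hold Cst7, were not part of this comparison.

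In FMC_new, at equal depth, some of the low genes were found more often in cells that held another of them. Spp1 was found in 13.2% of the cells with Lpl and 2.81% of those without, Cst7 in 28.4% of the cells with Spp1 and 11.8% of those without, and Lgals3 in 13.6% of the cells with Cst7 and 5.63% of those without. In C-ON, with means of 6.70 cells with Lpl, 3.95 with Spp1 and 18.9 with Cst7 a draw, the same shares were 26.1% against 1.07%, 8.86% against 8.92% and 7.67% against 3.42%, so that Cst7 was no more frequent with Spp1 there. Lgals3 with Lpl went opposite ways. It was found in 15.5% of the cells with Lpl and 6.31% of those without in FMC_new, but in 0.746% and 3.90% in C-ON.

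Microglia-like cells with a UMI of Cst7 or Lpl were then compared with the others at 1000 UMIs, as means over the 20 draws, in the 1604 genes with at least 20 UMIs a draw in each library. Higher in both libraries were 18 of 20 measured other disease-associated genes and lower in both 0, against 25.2% and 42.3% of all genes. Among them were the cathepsin genes Ctsb (1.92-fold and 1.67-fold) and Ctsd (1.41-fold and 1.85-fold), the lipid chaperone Fabp5 (1.72-fold and 2.06-fold) and the tetraspanin Cd63 (1.74-fold and 1.93-fold). Of the lipid genes 5 of 6 measured were higher in both, with the lysosomal phospholipase family gene Pld3 at 2.40-fold and 2.14-fold and the progranulin gene Grn at 1.83-fold and 1.35-fold. Of 7 measured TREM2 signalling partners 1 was higher (Ptpn6, 1.38-fold and 1.14-fold) and 4 lower in both, among them Csf1r at 0.692 and 0.876 times. Of the homeostatic genes 10 of 12 were lower in both and Fcrls was higher; the ratios were 0.612 and 0.623 for P2ry12 and 0.502 and 0.709 for Tmem119.

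Among the remaining 8 of the 10 genes, 4 had enough UMIs. Cd9 was 1.65-fold and 1.66-fold and Tyrobp 1.10-fold and 1.34-fold higher in cells with Cst7 or Lpl. Trem2 was 0.954 and 1.23 times and Apoe 0.961 and 1.37 times the level of the other cells, so that neither kept 1 direction. Values that moved with this split were those of dissociation response genes, 13 of 16 lower in both (Jun 0.698 and 0.672), and of oligodendrocyte markers, 8 of 9 lower in both. Of 3 measured macrophage markers 1 was lower in both (Pf4, 0.337 and 0.174), and their median ratio was 1.0103 in C-ON and 0.174 in FMC_new. The part of these genes in the result was not tested. T cell and NK cell markers, which bear on Cst7, had under 20 UMIs a draw and gave no value. Within cluster 6 alone 17 of 20 disease-associated genes were higher and 11 of 11 homeostatic genes lower in both libraries, beside 31.2% and 42.1% of 1341 genes, and Apoe was higher at 1.36-fold and 1.52-fold. The C-ON side rests on 17 to 32 cells with Cst7 or Lpl a draw in the whole class and on 14 to 28 in cluster 6.

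**Figure D4:**
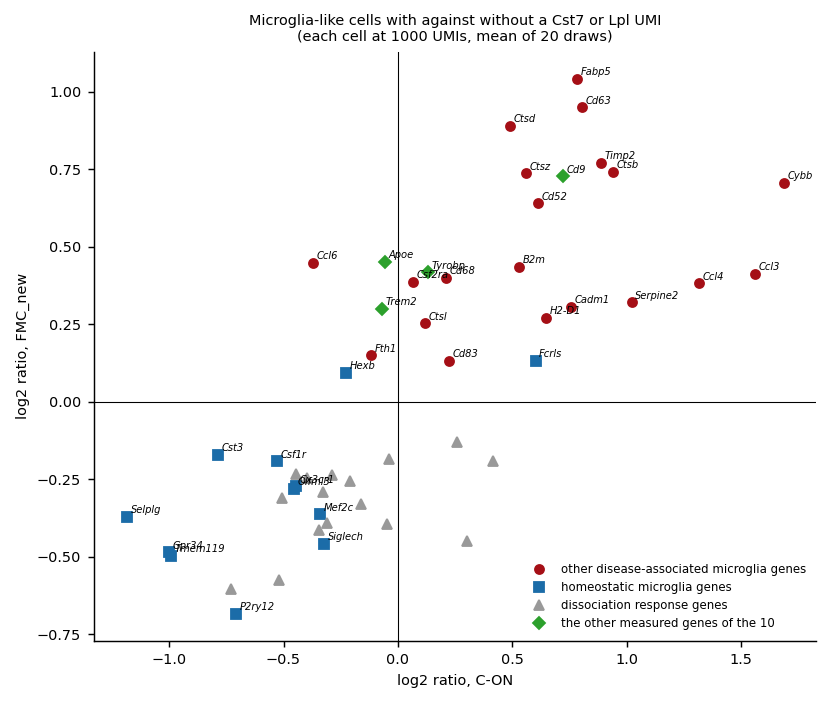
log2 ratio of levels in microglia-like cells with over those without a UMI of Cst7 or Lpl, C-ON on the x axis and FMC_new on the y axis, each cell at 1000 UMIs and each point a gene as the mean of 20 draws. Disease-associated genes (circles) lie mostly in the upper right, 18 of 20 with both ratios above 0, and homeostatic genes (squares) mostly in the lower left, 10 of 12; triangles are dissociation response genes and diamonds the measured others of the 10 genes.

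Macrophage-like cells formed 1 cluster led by Ccl7, F13a1, Pf4, Ms4a4a and Ms4a7, and Trem2 was found in 29.2% and 27.7% of them at 1000 UMIs, as means of 20 draws. Cells with Trem2 had more Apoe (1.37-fold and 1.35-fold), Cd9 (1.30-fold and 1.29-fold) and Tyrobp (1.13-fold and 1.10-fold) than cells without, while Lgals3 was at 0.987 and 0.753 times. Over all 2673 genes measured, 22.8% were higher and 40.0% lower in both libraries. Ctsd, the lysosomal protease gene, was 2.09-fold and 2.44-fold higher while of other disease-associated genes 10 of 23 were higher and 5 lower in both. Of 12 measured lipid genes 4 were higher in both, such as Cd36 (1.27-fold and 1.56-fold), and 6 lower, such as Pltp (0.575 and 0.872) and Abca1 (0.855 and 0.767). Microglia markers moved with this split, 6 of 7 higher in both (Olfml3 1.91-fold and 1.46-fold), and so did monocyte markers, 4 of 4 lower in both (Plac8 0.0977 and 0.420, Ly6c2 0.260 and 0.463); their part in the result was not tested.

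The tumor-like class held 2 clusters in which the 10 genes differed. Cluster 9 (196 and 897 cells), led by C1ql1, Pdgfra, Vcan, Cspg5 and Neu4, had Gpnmb at 128 CPM (108 to 151) and 317 CPM (303 to 332) and Cd9 at 1733 and 3583 CPM. Its Trem2 level was 0.882 and 2.91 CPM, near or below the 2.65 and 7.38 CPM of T cell-like cells, and Itgax was at 0 and 1.03 CPM. Cluster 18 (18 and 516 cells, read in FMC_new), led by Bcan, Gpr17, Frmd4a, Sox4 and Neu4, had Trem2 at 175 CPM (156 to 195), Tyrobp at 637 CPM (601 to 674) and Gpnmb at 89.6 CPM (76.5 to 104). In FMC_new all 12 microglia markers were found in both clusters, at a summed 2159 CPM in cluster 18 and 500.4 CPM in cluster 9, and 12 and 11 of the 12 macrophage markers at 243 and 59.3 CPM. Their part in the Trem2 level was not tested. With cluster 18 in the class 6 of the 10 genes reached 10 CPM in each library, where 30.3% of all 32285 genes did. With cluster 9 alone 3 did, Apoe, Gpnmb and Cd9, beside 29.97% of all genes.

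**Figure D5:**
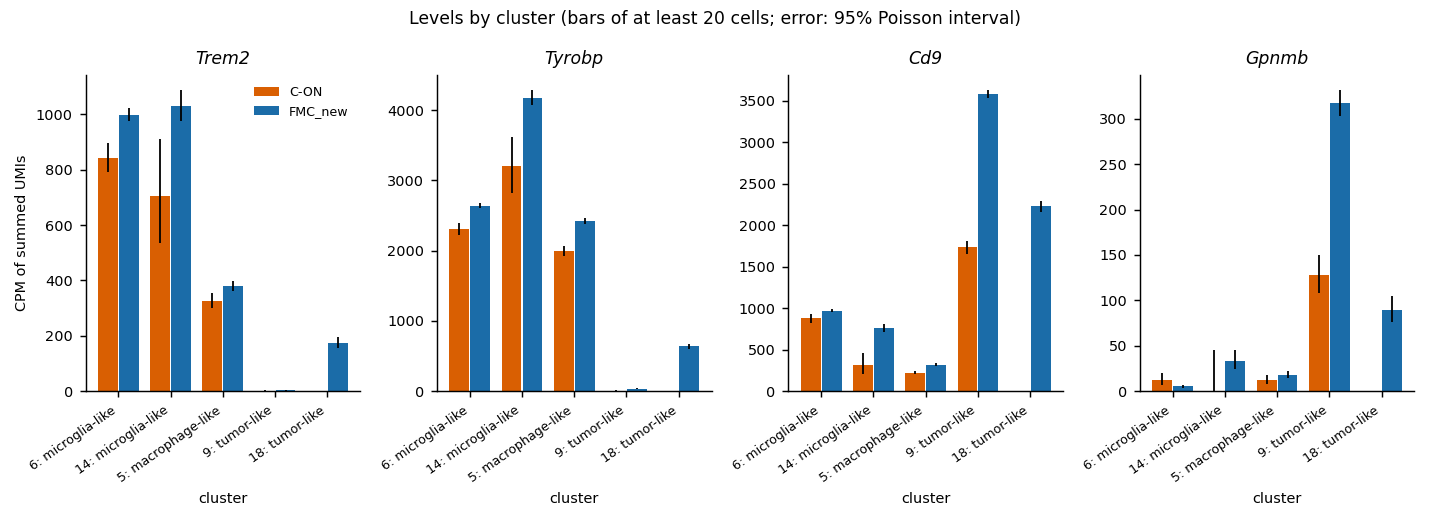
Levels (CPM, bars from 0, 95% Poisson intervals) of Trem2, Tyrobp, Cd9 and Gpnmb in the microglia-like clusters 6 and 14, the macrophage-like cluster 5 and the tumor-like clusters 9 and 18, in C-ON (orange) and FMC_new (blue; cluster 18 in FMC_new alone). Trem2 is near 0 in cluster 9 and at 175 CPM in cluster 18, while Gpnmb is highest in cluster 9, at 128 and 317 CPM.

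Cluster 9 cells with a Gpnmb UMI at 1000 UMIs, 5.08% and 16.7% as means of 20 draws, were compared with the others over 1923 genes, 31.2% of which were higher and 31.5% lower in both libraries. Of the 10 genes, Cd9 and Apoe could be measured: Cd9 was 1.55-fold and 1.51-fold higher and Apoe at 2.76 and 0.846 times. Of 10 measured other disease-associated genes 4 were higher and 3 lower in both, with Cd63 (1.45-fold and 1.45-fold), B2m (3.09-fold and 1.48-fold) and H2-D1 (3.77-fold and 1.45-fold) among the higher. Of the 12 tumor markers 3 were higher and 5 lower in both, and of 9 oligodendrocyte markers 6 were lower in both. Of 4 measured astrocyte markers 1 was higher in both (Gfap, 40.3-fold and 2.80-fold), 1 was lower and 2 went different ways. The part of these markers in the result was not tested. The C-ON ratios rest on 7 to 13 cells with Gpnmb a draw.

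The genes closest to each of the 10 were found by correlation of log2(CPM + 1) over 29 points, each a class in a library, among 17516 genes; the points share libraries and depth and the values are descriptions. Trem2 was nearest to the complement genes C1qa (r = 0.963) and C1qb (r = 0.956), and Tyrobp to Hhex (0.923) and the Fc receptor gamma chain gene Fcer1g (0.916). Apoe was nearest to Trpv4 (0.862) and Catip (0.861), Lpl to Flt1 (0.883) and 4930405A10Rik (0.873), and Cst7 to Cd200r4 (0.876) and Ms4a4b (0.865). For Gpnmb they were Gm45169 (0.791) and Vxn (0.789), for Cd9 Atp6v1a (0.830) and Tatdn3 (0.827), and for Spp1 Slc12a7 (0.796) and Sdcbp (0.773). Itgax was nearest to Arih2 (0.879) and Tyrobp (0.867), and Lgals3 to Rin3 (0.929) and Nbeal2 (0.907). Among the 10 genes themselves, Tyrobp and Itgax (0.867) and Trem2 and Apoe (0.764) ran together most, and Gpnmb and Lgals3 went opposite ways (-0.372).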

How the data were processed

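Single-cell libraries were made with the 10x 5′ v2 kit, and per the labels optic nerves and dura were collected separately, optic nerve suspensions had debris and myelin removed, and a 7-AAD live sort is described for dura. The authors deposited UMI counts per gene and cell, made with Cell Ranger 7.2.0 (per the file headers) on mm10; the raw counts are whole numbers and not normalized. The study also merged other libraries, not analysed here.

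Cells with 500 to 5000 genes, 500 to 20000 UMIs and at most 5% mitochondrial UMIs were kept. Seurat 5.3.0 (R 4.3.3) log-normalized the counts, took 2000 variable features, from which the 10 genes were left out, integrated the libraries by CCA (the study's methods name log normalization and the series text SCTransform) and clustered on 30 components at resolution 0.8. Clusters were named by fixed markers. The rule for naming was settled after the clusters were seen, and the genes and lists were chosen with earlier results of these data known. Counts were summed per class and library and given as CPM with exact 95% Poisson intervals; classes of under 20 cells in a library were not used. Folds were called at 2-fold in each library among genes with at least 20 UMIs over both classes. Shares were taken at 1000 UMIs a cell, with exact binomial intervals, and splits as means of 20 draws. All 10 genes were described in every class, and for each the 2 most correlated genes were named. The calling step was tested on simulated class totals with planted changes well above the 2-fold limit. That simulation had no differences between cells, so it does not bear on calls near the limit or on genes held by few cells. Doublets: Scrublet's own threshold called 1 cell in C-ON and 0 in FMC_new and did not work; leaving out the highest 5% of scores was tried instead. UMI totals were 85101211 and 129113325 before filtering. Gene positions are from the GENCODE annotation of GRCm38. Other settings tried were SCTransform, other resolutions, mitochondrial limits, folds, CPM totals and depths, and single libraries.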

Additional observations from a re-analysis of the deposited data

How the results depend on the processing

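Of 138 recomputed values of 11 summary results, 120 stayed within 1.5 times of a count or within the spread of the share and 18 moved. A count of 1 moves when a single gene joins it. Direction was not part of this check. The genes called lower in microglia-like than in tumor-like cells went from 1 to 2, under SCTransform, resolution 1.2, CPM without mitochondrial, immunoglobulin and hormone genes, the 1.5-fold threshold, without C-ON, without the highest 5% of Scrublet scores and without cluster 18 (the last 2 chosen after seeing the data); at 1.5-fold and without C-ON the added gene was Cd9. Against dendritic-like cells they went from 1 to 2 under SCTransform, resolution 1.2 and 1.5-fold; at 1.5-fold the added gene was Itgax. Against macrophage-like cells they went from 1 to 2 at resolution 1.2, 1.5-fold, without FMC_new and without cluster 14 (chosen after seeing the data), and to 0 at 3-fold, where the genes called higher went from 4 to 1 (Cst7); without FMC_new and at 1.5-fold the added gene was Apoe. The number of genes at 10 CPM in tumor-like cells was 3 without cluster 18, against 6. The share of microglia-like cells with Cst7 or Lpl was 21.5% at 2000 UMIs a cell against 11.9% at 1000, both the mean of the libraries in the first draw; over 20 draws at 1000 UMIs the libraries' means were 11.6% and 15.1%, and the first draw of C-ON was its lowest. Leaving out 1 library gave 1 to 2 genes lower than in macrophage-like or tumor-like cells, and a share with Cst7 or Lpl from 8.02% to 15.7% in that first draw. Of 540 recomputed levels of single genes, 62 moved by over 1.5 times; under SCTransform the astrocyte-like class took in other cells and its Gpnmb level was 160.2 CPM against 8.21. The cause of the other moves was not tested. No paired analysis was possible because the replicate numbers come from accession order and both libraries are of 1 group. In microglia-like cells, levels of Lpl, Spp1 and Gpnmb moved by over 1.5 times without 1 cell in at least 1 library.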

Other observations

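Spp1 in T cell-like cells was not spread evenly over their clusters. Cluster 8, whose leading genes include Foxp3, Ctla4 and Il2ra of regulatory T cells, held 348 Spp1 UMIs in FMC_new, in 46 of 924 cells, for 116 CPM (95% Poisson interval 104 to 129), and 87.3 CPM without the cell that held most. In C-ON 72 of its 79 UMIs lay in a single cell, and its level was 116 CPM with that cell and 10.4 CPM (4.17 to 21.4) without it. Cluster 11, whose leading genes include Cd8a and the checkpoint receptor gene Pdcd1, held 34.4 and 231 CPM of Spp1 (28.1 and 199.3 CPM without the top cell of each library), and cluster 2, led by Gzmk, held 1.11 and 2.87 CPM. Cst7 followed another order: 73.9% and 72.2% of the cells of cluster 11 had a UMI, at 397 and 483 CPM, and cluster 2 was at 118 and 168 CPM, below the 166 and 180.1 CPM of microglia-like cells.

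Cluster 28 (36 and 226 cells) stayed unnamed because it held markers of both oligodendrocytes and microglia. Its Trem2 level was 45.6 CPM in C-ON and 210.3 CPM in FMC_new and its Tyrobp level 332 and 785 CPM, between those of oligodendrocyte-like and microglia-like cells. In cluster 14, the shallow microglia-like cluster with medians of 1404 and 1720 UMIs a cell, the summed oligodendrocyte markers were 19356 and 9093 CPM, against 8228 and 3130 CPM in cluster 6.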
